A study of Mus musculus with 12 samples.

Results

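The genes described here are 10 components of the Notch pathway, taken by symbol from a table of 23284 mouse gene symbols. They are 3 receptors (Notch1, Notch2 and Notch3), 2 ligands (Dll1 and Jag1), the DNA-binding partner Rbpj, and 4 target genes (Hes1, Hey1, Hey2 and Heyl). RNA abundance was read as FPKM, a measure of fragments scaled by gene length and by library size. There were 12 libraries in 4 groups of 3, all of muscle progenitors sorted for the surface proteins α7-integrin and VCAM and against CD31 and CD45, antigens of endothelial cells and leukocytes. Every group carries the strain label 129P2/OlaHsd, and no label names a genotype, an added agent or the host of a graft.

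The transplant group was sorted from tibialis anterior muscle that had received progenitors of teratoma origin 1 month earlier. The teratoma group was sorted from teratomas 3 weeks old, tumours of mixed tissues that grow from injected pluripotent cells. The adult group was sorted from the hindlimbs of 8-week-old males, where such a sort enriches satellite cells, the stem cells that lie along muscle fibres. The embryo group was sorted from whole embryos at E14.5, so its cells can come from any muscle of the body. The sort does not separate grafted cells from host progenitors in the transplant group, and the labels used here give no marker that would.

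Notch receptors are cut when a ligand on a neighbouring cell pulls on them, and the released intracellular part joins Rbpj on DNA and turns on genes of the Hes and Hey families. The products of these genes are repressors of the basic helix-loop-helix class. In muscle, Notch signalling is known for holding progenitors back from differentiation and for keeping satellite cells quiescent. Mice that lack both Hey1 and Heyl lose their satellite cells, and loss of Rbpj lets progenitors differentiate too early.

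Notch2, Jag1 and Rbpj were called in no comparison between the 4 groups, while Notch1, Notch3 and Dll1 were called in 3 each and the 4 target genes had the widest spans. The highest group mean exceeded the lowest by 1.11-fold for Notch2, 1.23-fold for Jag1, 1.35-fold for Rbpj, 1.92-fold for Notch1, 2.25-fold for Notch3 and 3.04-fold for Dll1. The same ratio was 3.48 for Hey1, 6.90 for Heyl, 9.95 for Hes1 and 23.8 for Hey2. The Hey2 ratio divides by an adult mean of only 0.334 FPKM. In log2(FPKM + 1) its largest change, -2.58, was smaller in size than the 3.14 of Hes1. Hes1 and Heyl were highest in transplant libraries and lowest in adult libraries, whereas Hey1 was highest in adult libraries. No member was listed at 0 in any of the 12 libraries.

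**Figure D1:**
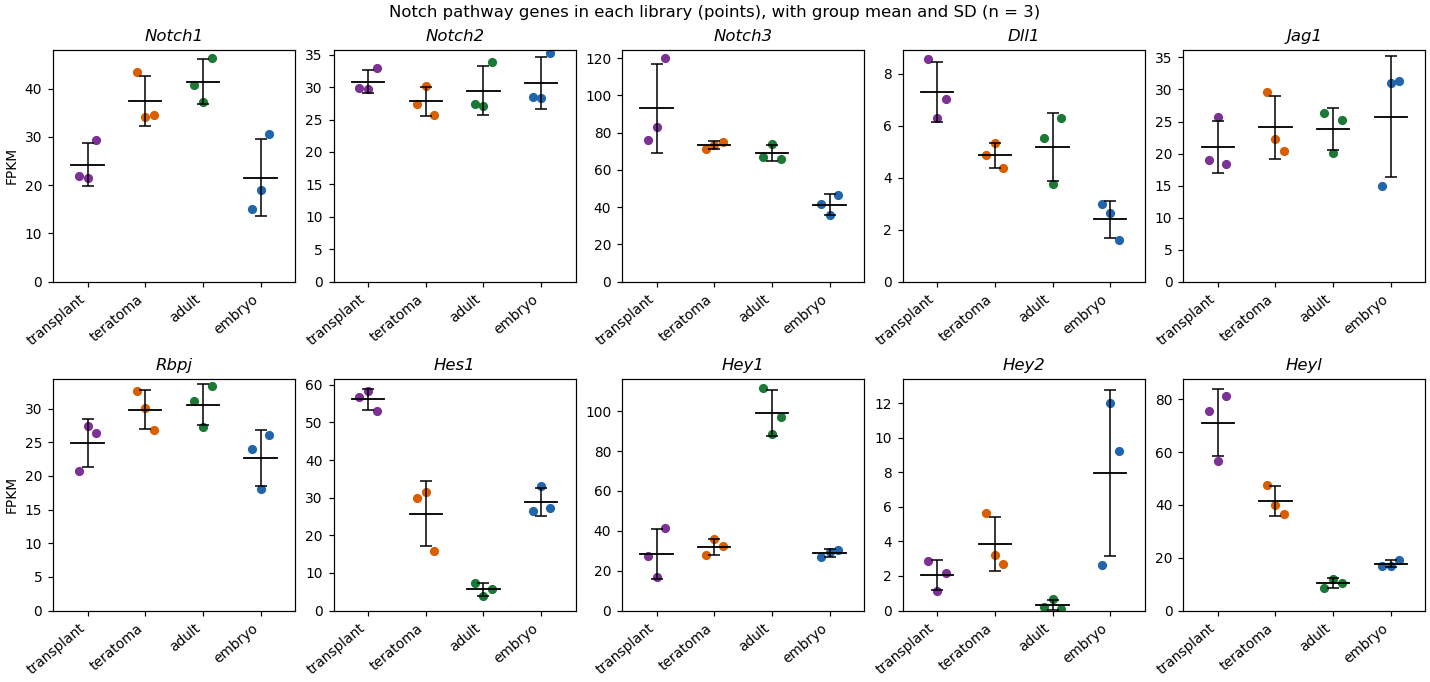
FPKM of each Notch member in each library (points), with the mean and SD of the 3 libraries of each group, in the order transplant, teratoma, adult and embryo. Hes1 and Heyl have their highest points in the transplant group and their lowest in the adult group, Hey1 has its highest points in the adult group, and Notch2 and Jag1 overlap in all groups.

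All 10 members lie on mm10 at positions given below from GENCODE M21. Promoter sequence was at hand from RefSeq (GRCm38.p6, the same build) for 7 members in 9 windows of 300 bases, each from 250 bases before to 50 after a transcription start. Hes1, Hey1 and Heyl had no entry. The windows were searched on both strands for TGGGAA, the core of the sequence that Rbpj binds, and for the longer GTGGGAA, which contains it. Of the members, TGGGAA was present in Hey2 and Rbpj, and GTGGGAA in Hey2. Among 32851 windows of the same length, 25.6% held TGGGAA and 6.38% held GTGGGAA. In the Hey2 window the matches to TGGGAA begin 207 and 3 bases before the start. In the first Rbpj window they begin 149 and 65 bases before it, and a second, overlapping window of Rbpj holds the later of these sites again. The Hey2 and Rbpj windows are shown for these matches, and those of Notch1, Notch3 and Dll1 because these genes differed together between the embryo group and the teratoma and adult groups. Capitals mark TGGGAA or its reverse complement, and windows without a match are all in lower case. Hey2 is at chr10:30842734-30843033 and Rbpj at chr5:53590096-53590395. Notch1 is at chr2:26503773-26504072, Notch3 at chr17:32166841-32167140 and Dll1 at chr17:15376883-15377182. Rbpj is on the plus strand and the others are on the minus strand, and each is printed in the direction of transcription.
Hey2: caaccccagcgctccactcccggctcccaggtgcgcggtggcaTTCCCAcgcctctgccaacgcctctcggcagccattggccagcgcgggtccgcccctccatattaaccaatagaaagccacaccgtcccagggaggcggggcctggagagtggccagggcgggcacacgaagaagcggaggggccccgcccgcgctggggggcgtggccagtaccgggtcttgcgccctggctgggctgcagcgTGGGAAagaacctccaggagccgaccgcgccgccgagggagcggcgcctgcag
Rbpj: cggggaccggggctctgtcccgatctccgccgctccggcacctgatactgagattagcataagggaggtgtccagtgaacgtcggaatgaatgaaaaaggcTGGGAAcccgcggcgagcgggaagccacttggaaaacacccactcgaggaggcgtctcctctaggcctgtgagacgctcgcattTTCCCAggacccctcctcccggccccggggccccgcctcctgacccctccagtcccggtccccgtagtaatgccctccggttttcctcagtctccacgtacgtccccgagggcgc
Notch1: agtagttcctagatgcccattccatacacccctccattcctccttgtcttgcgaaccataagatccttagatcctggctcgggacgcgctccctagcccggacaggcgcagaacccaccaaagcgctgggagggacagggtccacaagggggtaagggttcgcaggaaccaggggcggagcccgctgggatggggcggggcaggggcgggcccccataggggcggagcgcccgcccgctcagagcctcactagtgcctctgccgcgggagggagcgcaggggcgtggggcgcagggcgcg
Notch3: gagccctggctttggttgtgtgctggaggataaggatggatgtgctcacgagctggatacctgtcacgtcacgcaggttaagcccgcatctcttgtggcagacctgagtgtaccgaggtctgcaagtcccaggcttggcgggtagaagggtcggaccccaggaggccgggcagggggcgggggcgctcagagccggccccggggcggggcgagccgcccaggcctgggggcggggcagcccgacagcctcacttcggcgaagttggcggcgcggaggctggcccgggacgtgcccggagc
Dll1: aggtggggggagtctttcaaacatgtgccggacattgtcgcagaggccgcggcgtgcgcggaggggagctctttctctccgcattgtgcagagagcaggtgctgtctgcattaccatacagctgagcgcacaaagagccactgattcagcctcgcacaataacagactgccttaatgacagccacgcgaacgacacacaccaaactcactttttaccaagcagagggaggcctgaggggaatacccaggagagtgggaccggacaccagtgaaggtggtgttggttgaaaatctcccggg
Absence of these letters describes only these windows, and a match is not a measured binding site. Of the other motifs searched on both strands, the E-box CAGCTG was in Dll1 and Jag1 (16.3% of all windows) and CACGCG in Dll1, Jag1 and Notch2 (9.27% of all windows). The Dll1 matches are in the window shown, and its other window, chr17:15375774-15376073, held none of the motifs searched. The E-box CACGTG was in no member's window and in 7.15% of all windows.

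Between 9495 and 12000 genes reached 1 FPKM in a library. Small and ribosomal RNA made up 39.2% to 97.7% of the FPKM sum, and the read depth is unknown, so no counting interval could be given. The design text speaks of 3 biological replicates without saying whether these were separate animals. The p-values therefore rest on a spread between libraries within groups, pooled over the 4 groups, that may be technical. None of 10 genes of a satellite cell and progenitor list was at 0 throughout a group, but Pax3 averaged 0.169 FPKM in transplant and Chrdl2 0.178 in embryo libraries. Their summed FPKM was 387 to 554 in transplant, 393 to 528 in teratoma, 1069 to 1211 in adult and 140 to 177 in embryo libraries. The adult sum was mostly Myod1 (mean 402.8 FPKM) and Sdc4 (331.5). Pax7 averaged 42.3 FPKM in transplant, 23.1 in teratoma, 9.11 in adult and 14.0 in embryo libraries. In transplant against adult libraries 2 of the 10 were called higher and 4 lower, beside 27.3% and 16.9% of all genes. Genes of other cell types were also present. The sum of 13 endothelial genes was 12.3 to 13.01 FPKM in transplant, 60.2 to 72.1 in teratoma, 23.2 to 34.0 in adult and 25.8 to 63.2 in embryo libraries. For 10 fibroblast genes it was 1291 to 1824 FPKM in transplant, 622 to 766 in teratoma, 453 to 541 in adult and 298 to 404 in embryo libraries. Epithelial, erythroid, leukocyte and proliferation genes also differed widely between the groups. Sums of 7 epithelial genes were 0.0963 to 0.435 FPKM in transplant, 181 to 467 in teratoma, 0.634 to 1.99 in adult and 4.02 to 18.4 in embryo libraries. Epcam, Ttr and Afp were listed at 0 in all transplant libraries. Those of 7 erythroid genes were 0.486 to 7.50 FPKM in transplant, 38.7 to 164 in teratoma, 4.51 to 55.6 in adult and 464 to 2279 in embryo libraries. For 8 macrophage and leukocyte genes they were 21.5 to 34.8 FPKM in transplant, 40.5 to 144 in teratoma, 7.31 to 15.7 in adult and 3.02 to 11.4 in embryo libraries. For 8 proliferation genes they were 37.9 to 50.9 FPKM in transplant, 185 to 254 in teratoma, 103 to 112 in adult and 464 to 617 in embryo libraries. Pcna made most of the adult sum, averaging 100.8 FPKM in adult and 31.1 in transplant libraries. Of the 8 genes, 3 were called higher and 1 lower in transplant than in adult libraries, beside 27.3% and 16.9% of all genes. The part of any of these cells, or of cycling, in the levels below was not tested. In these bulk samples a smaller number of cells of a type and less RNA per cell cannot be told apart.

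Differences were tested with limma on log2(FPKM + 1) over 12699 genes that reached 1 FPKM in at least 3 libraries, in a single model of the 4 groups. A gene was called at a Benjamini-Hochberg adjusted p under 0.05, with adjustment over all genes tested, and every adjusted p below is of this kind. A change is the difference in log2(FPKM + 1), with its standard error (SE), and understates the change of genes near or under 1 FPKM. All 10 members passed the filter on low values.

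Notch1 is the receptor best known for keeping satellite cells in place as stem cells, and lies on chromosome 2 from 26457903 to 26516663. Its level was 21.9, 21.4 and 29.3 FPKM in transplant libraries, 43.5, 34.2 and 34.5 FPKM in teratoma libraries, 40.7, 37.2 and 46.4 FPKM in adult libraries, and 15.1, 19.0 and 30.5 FPKM in embryo libraries. The teratoma and adult libraries thus formed a higher pair of groups that overlapped each other, and the transplant and embryo libraries a lower pair that also overlapped. Notch1 was lower in transplant than in adult libraries by 0.76 (log2 change -0.76, SE 0.23, adjusted p = 0.0190). This call was lost without transplant replicate 1 (adjusted p = 0.0630), transplant replicate 2 (0.0638) or adult replicate 3 (0.0673), within a range of 0.00157 to 0.0673 over all alternatives. The transplant libraries also lay below all teratoma libraries, but the change of -0.61 missed the threshold (adjusted p = 0.0769). It was called without embryo replicate 3 (0.0293), and its adjusted p ran from 0.0293 to 0.320 over the alternatives. Against embryo libraries Notch1 was higher in teratoma (0.82, SE 0.23, adjusted p = 0.0222) and adult libraries (0.96, SE 0.23, adjusted p = 0.00390). The teratoma call was lost without teratoma replicate 1 (0.0729), embryo replicate 1 (0.0784) or embryo replicate 2 (0.0600), and in a fit of those 2 groups alone (0.0748). Its range over all alternatives was 0.00285 to 0.0784.

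Notch2, a second receptor of satellite cells, lies on chromosome 3 from 98013527 to 98150361. It was the steadiest member, at 30.8 ± 1.81 FPKM in transplant, 27.8 ± 2.28 in teratoma, 29.5 ± 3.78 in adult and 30.7 ± 3.98 in embryo libraries (SD, n = 3 each). Its 12 values lay between 25.7 and 35.3 FPKM, with the groups overlapping throughout. No comparison called it. The 6 changes ran from -0.13 to 0.15 on the log2 scale, with 95% intervals that reached from -0.46 to 0.47, and the lowest adjusted p was 0.526. With median-ratio scaling, which sets libraries to a common median gene, Notch2 was called in 3 comparisons: higher in transplant than in teratoma (0.46, adjusted p = 0.0353), lower in teratoma than in adult (-0.60, adjusted p = 0.00362) and higher in adult than in embryo libraries (0.47, adjusted p = 0.0107). Over all alternatives the adjusted p ran from 0.0353 to 0.743, 0.00362 to 0.924 and 0.0107 to 0.995 in these comparisons.

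Notch3, a receptor also typical of pericytes and smooth muscle, lies on chromosome 17 from 32120820 to 32166852. Its level was 75.8, 83.0 and 120.2 FPKM in transplant libraries, 71.0, 73.5 and 75.2 FPKM in teratoma libraries, 66.8, 74.0 and 66.1 FPKM in adult libraries, and 41.8, 35.7 and 46.6 FPKM in embryo libraries. Every embryo library was below every other library, and transplant libraries were above the teratoma and adult ones by a small margin. Notch3 was higher than in embryo libraries in the transplant (1.13, SE 0.17, adjusted p = 0.000269), teratoma (0.82, SE 0.17, adjusted p = 0.00471) and adult groups (0.73, SE 0.17, adjusted p = 0.00367). These 3 calls held under every alternative tried. The changes between transplant and teratoma (0.31, adjusted p = 0.224) and between transplant and adult libraries (0.40, adjusted p = 0.0820) were not called. The first was called with median-ratio scaling (adjusted p = 0.0278) and quantile normalization (0.0475), in a range over the alternatives of 0.0278 to 0.667. The second was called without transplant replicate 1 (adjusted p = 0.0424) and with quantile normalization (0.0197), in a range of 0.0197 to 0.407. The 11 other mural genes listed, those of pericytes and smooth muscle, summed to 287 to 309 FPKM in transplant, 427 to 566 in teratoma, 368 to 415 in adult and 211 to 320 in embryo libraries. The adult sum was mostly Des, which averaged 93.2 FPKM in transplant, 71.1 in teratoma, 262.9 in adult and 17.8 in embryo libraries. The part of mural cells in the Notch3 level was not tested.

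Dll1 encodes a ligand found on differentiating myoblasts and lies on chromosome 17 from 15367354 to 15376872. Its level was 8.56, 6.30 and 7.03 FPKM in transplant libraries, 4.86, 5.34 and 4.37 FPKM in teratoma libraries, 5.51, 3.74 and 6.28 FPKM in adult libraries, and 2.97, 2.64 and 1.60 FPKM in embryo libraries. Embryo libraries were below all others, and transplant libraries above all teratoma and adult ones. Dll1 was higher than in embryo libraries in the transplant (1.30, SE 0.24, adjusted p = 0.00104), teratoma (0.80, SE 0.24, adjusted p = 0.0287) and adult groups (0.86, SE 0.24, adjusted p = 0.00976). The teratoma call was the weakest of these. It was lost without teratoma replicate 1 (0.0619), teratoma replicate 2 (0.0934) or embryo replicate 3 (0.0905), in a fit of the 2 groups (0.0958) and with quantile normalization (0.0546), in a range of 0.0284 to 0.0958. The changes of transplant against teratoma (0.50, adjusted p = 0.163) and against adult libraries (0.44, adjusted p = 0.162) were not called. With quantile normalization the first was called (0.84, adjusted p = 0.0368, range over the alternatives 0.0368 to 0.384). Genes of differentiating muscle, 11 in number, summed to 136 to 163 FPKM in transplant, 144 to 226 in teratoma, 6.93 to 21.0 in adult and 102 to 177 in embryo libraries. The embryo sum was mostly Actc1 (mean 102.6 FPKM). Against embryo libraries 7 were called higher and 2 lower in transplant (beside 14.9% and 27.6% of all genes). The counts were 7 and 0 in teratoma (15.5% and 10.6%) and 1 and 4 in adult libraries (15.8% and 36.9%). The part of these genes' cells in the Dll1 level was not tested.

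Jag1, the more abundant of the 2 ligands, lies on chromosome 2 from 137081456 to 137116644. It averaged 21.0 ± 4.09 FPKM in transplant, 24.1 ± 4.91 in teratoma, 23.9 ± 3.28 in adult and 25.8 ± 9.42 in embryo libraries (SD, n = 3 each). No comparison called it, the lowest adjusted p being 0.533. Its changes ran from -0.23 to 0.00 on the log2 scale with 95% intervals from -0.81 to 0.59, so differences within that range are not excluded. The embryo libraries were the most scattered, at 14.9, 31.0 and 31.4 FPKM. Jag1 made up 68.7% of the summed FPKM of the 5 canonical ligands in transplant, 67.8% in teratoma, 79.3% in adult and 75.5% in embryo libraries. The Dll1 share was 24.5% in transplant, 13.9% in teratoma, 17.0% in adult and 8.08% in embryo libraries.

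Rbpj, the factor that carries the Notch signal to DNA, lies on chromosome 5 from 53466152 to 53657362. It averaged 24.8 ± 3.57 FPKM in transplant, 29.9 ± 2.95 in teratoma, 30.6 ± 3.05 in adult and 22.7 ± 4.19 in embryo libraries (SD, n = 3 each). No comparison called it. The lowest adjusted p was 0.0591, for adult against embryo libraries, at a change of 0.43 with a 95% interval of 0.04 to 0.81. The adult libraries all lay above the embryo ones. That comparison was called without embryo replicate 3 (adjusted p = 0.0372), and with median-ratio scaling (0.000270) or quantile normalization (0.0160), within a range of 0.000270 to 0.208. Median-ratio scaling also called Rbpj lower in transplant than in adult libraries (-0.51, adjusted p = 0.0168, range 0.0168 to 0.505), higher in transplant than in embryo libraries (0.44, adjusted p = 0.0375, range 0.0375 to 0.941) and lower in teratoma than in adult libraries (-0.55, adjusted p = 0.0118, range 0.0118 to 0.949). GENCODE M21 annotates processed pseudogenes of Rbpj, so its value could include or lose shared reads. Notch1, Notch2, Notch3, Dll1 and Rbpj each overlap another annotated gene, for Notch3 the antisense gene Gm17276, and none of these neighbours is in the table. Whether strand was used in counting is not given, so reads of such partners cannot be told apart.

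Hes1 is the target most widely used as a readout of Notch activity and lies on chromosome 16 from 30064384 to 30067796. Its level was 56.9, 58.4 and 53.1 FPKM in transplant libraries, 29.9, 31.6 and 15.9 FPKM in teratoma libraries, 7.34, 3.92 and 5.65 FPKM in adult libraries, and 26.3, 33.2 and 27.2 FPKM in embryo libraries. The transplant libraries were above and the adult libraries below all others, while teratoma and embryo libraries overlapped. Hes1 was higher in transplant than in teratoma libraries (1.15, SE 0.26, adjusted p = 0.00779), adult libraries (3.14, SE 0.26, adjusted p = 5.60e-06) and embryo libraries (0.94, SE 0.26, adjusted p = 0.0109). Relative to adult libraries, it was also higher in teratoma libraries (1.99, SE 0.26, adjusted p = 9.54e-05). Adult libraries were lower than embryo libraries (-2.20, SE 0.26, adjusted p = 2.06e-05). Teratoma against embryo gave -0.21 with a 95% interval of -0.77 to 0.35 (adjusted p = 0.583). All 5 calls held under every alternative tried.

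Heyl, a target known to act with Hey1 in satellite cells, lies on chromosome 4 from 123233556 to 123249875. Its level was 75.7, 56.7 and 81.2 FPKM in transplant libraries, 47.5, 39.997 and 36.4 FPKM in teratoma libraries, 8.36, 12.05 and 10.5 FPKM in adult libraries, and 16.8, 17.0 and 19.2 FPKM in embryo libraries. No 2 groups overlapped, in the order transplant, teratoma, embryo, adult, and Heyl was the only member called in all 6 comparisons. Heyl was higher in transplant than in teratoma libraries (0.76, SE 0.18, adjusted p = 0.0117), adult libraries (2.67, SE 0.18, adjusted p = 1.84e-06) and embryo libraries (1.94, SE 0.18, adjusted p = 7.01e-06). Teratoma libraries were higher than adult (1.91, SE 0.18, adjusted p = 1.32e-05) and embryo libraries (1.17, SE 0.18, adjusted p = 0.000685). These 5 calls held under every alternative tried. The sixth, lower in adult than in embryo libraries (-0.74, SE 0.18, adjusted p = 0.00479), was lost with median-ratio scaling (-0.23, adjusted p = 0.278) and with quantile normalization (-0.41, adjusted p = 0.0773). The fibroblast sums given above were also highest in transplant libraries, and those of 6 tendon genes were 366 to 691 FPKM in transplant, 51.5 to 81.9 in teratoma, 48.4 to 70.1 in adult and 27.99 to 37.6 in embryo libraries. Their part in the Heyl and Hes1 levels was not tested.

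Hey1, the target most closely tied to quiescent satellite cells, lies on chromosome 3 from 8663359 to 8667256. Its level was 27.4, 16.6 and 41.4 FPKM in transplant libraries, 27.7, 35.8 and 32.4 FPKM in teratoma libraries, 112, 88.4 and 97.4 FPKM in adult libraries, and 26.8, 29.5 and 30.3 FPKM in embryo libraries. The adult libraries stood above all 9 others, which overlapped. Hey1 was lower than in adult libraries in the transplant (-1.85, SE 0.25, adjusted p = 0.000148) and teratoma groups (-1.60, SE 0.25, adjusted p = 0.000384), and higher in adult than in embryo libraries (1.74, SE 0.25, adjusted p = 0.000121). These 3 calls held under every alternative tried. The other comparisons gave -0.24 for transplant against teratoma (95% interval -0.80 to 0.31), -0.11 for transplant against embryo (-0.66 to 0.45) and 0.14 for teratoma against embryo libraries (-0.42 to 0.69). Hey1 is also a gene of arterial endothelium. The 6 other arterial genes listed summed to 4.73 to 7.42 FPKM in transplant, 19.6 to 25.6 in teratoma, 13.7 to 14.9 in adult and 22.7 to 35.4 in embryo libraries. These sums were mostly Efnb2, which averaged 3.91 FPKM in transplant, 16.2 in teratoma, 11.9 in adult and 25.2 in embryo libraries. The part of arterial cells in the Hey1 level was not tested.

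Hey2, a target with known roles in heart and artery development, lies on chromosome 10 from 30832359 to 30842801. Its level was 2.85, 1.11 and 2.16 FPKM in transplant libraries, 5.64, 3.23 and 2.67 FPKM in teratoma libraries, 0.211, 0.677 and 0.113 FPKM in adult libraries, and 2.63, 12.02 and 9.21 FPKM in embryo libraries. Adult libraries were below all others, and embryo libraries were the most scattered. Hey2 was lower in adult than in embryo libraries (-2.58, SE 0.44, adjusted p = 0.000406), a call that held under every alternative in which Hey2 was tested. It was higher in teratoma than in adult libraries (1.84, SE 0.44, adjusted p = 0.00541), except with quantile normalization (adjusted p = 0.0588, range 0.00102 to 0.0588). In transplant against adult libraries the change was 1.17 (SE 0.44, adjusted p = 0.0493). That call was lost when any of 9 libraries was left out, at adjusted p values of 0.0512 to 0.155: transplant replicates 1 and 3, all teratoma and adult replicates, and embryo replicate 3. It was also lost with no filter on low values (0.0893) and with quantile normalization (0.190). Transplant against embryo libraries gave -1.41 (SE 0.44, adjusted p = 0.0224) although the groups overlapped. It was lost without transplant replicate 2 (0.0851), embryo replicate 2 (0.0830) or embryo replicate 3 (0.0766), in a range of 0.00139 to 0.0851. Teratoma against embryo libraries was not called (-0.74, adjusted p = 0.249), but was without embryo replicate 1 (-1.30, adjusted p = 0.0244, range 0.0244 to 0.590). The endothelial list summed to 25.8, 63.2 and 30.7 FPKM in embryo replicates 1, 2 and 3, and 10 of its 13 genes were highest in replicate 2, where Hey2 was too. Pecam1 was at 0.638, 8.31 and 2.10 FPKM and Cdh5 at 4.44, 10.4 and 6.53 FPKM in these libraries. Tek ran the other way, at 8.41, 3.53 and 5.55 FPKM, and Emcn (1.75, 1.83 and 1.97 FPKM) and Sox17 were highest in replicate 3. The part of endothelial cells in the Hey2 level was not tested.

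The make-up of the target family differed more between groups than its total. Summed FPKM of Hes1, Hey1, Hey2 and Heyl averaged 157.8 ± 22.9 in transplant, 102.9 ± 13.5 in teratoma, 115.4 ± 11.3 in adult and 83.4 ± 9.80 in embryo libraries (SD, n = 3 each). Hey1 made up 17.5% of it in transplant, 31.5% in teratoma, 85.8% in adult and 34.8% in embryo libraries. Heyl made up 44.9% in transplant, 40.3% in teratoma, 9.10% in adult and 21.4% in embryo libraries. For Hes1 the shares were 36.2% in transplant, 24.6% in teratoma, 4.82% in adult and 34.7% in embryo libraries. The sum was thus mostly Heyl and Hes1 in transplant libraries, mostly Hey1 in adult libraries, and near equal parts of Hes1 and Hey1 with less Heyl in embryo libraries. The ratio of Heyl to Hey1 was 2.76, 3.41 and 1.96 in transplant libraries, 1.71, 1.12 and 1.12 in teratoma libraries, 0.0750, 0.136 and 0.108 in adult libraries, and 0.628, 0.577 and 0.635 in embryo libraries. These ratios within a library are not touched by its scaling, and no 2 groups overlapped. As shares and ratios of the levels tested above, they are a description and were given no test.

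**Figure D2:**
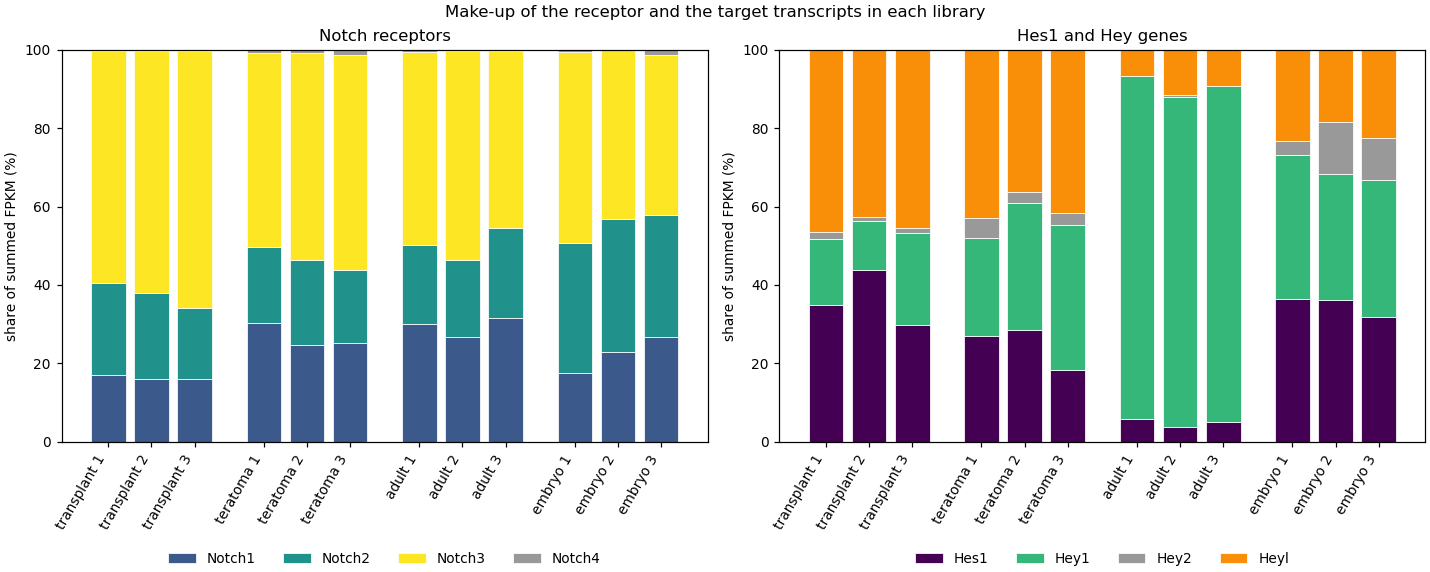
Shares in percent of summed FPKM in each library, for the Notch receptors and for Hes1 with the Hey genes, libraries ordered transplant, teratoma, adult and embryo. Notch3 is the largest receptor share in every library, and Hey1 takes 84.2% to 87.5% of the target sum in adult libraries but 12.5% to 37.1% elsewhere.

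Receptor sums were nearer to each other, at 148.6 ± 30.2 FPKM in transplant, 139.8 ± 3.06 in teratoma, 140.3 ± 5.83 in adult and 94.2 ± 17.0 in embryo libraries. Notch3 made up 62.2% of the receptor sum in transplant, 52.4% in teratoma, 49.2% in adult and 44.2% in embryo libraries. Notch1 made up 16.3% in transplant, 26.7% in teratoma, 29.5% in adult and 22.5% in embryo libraries. Transplant libraries thus held the most Notch3 and the least Notch1 of the receptor RNA. Notch2 made up 21.1% in transplant, 19.9% in teratoma, 20.9% in adult and 32.7% in embryo libraries, where Notch3 was low. Notch4, an endothelial receptor and no member here, averaged under 1% of the receptor sum in each group.

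Against teratoma libraries, transplant libraries had higher Hes1 and Heyl, and none of the other members was called. That made 2 of 10 members higher and 0 lower. Of all genes tested, 22.6% were called, 4.18% higher and 18.5% lower. The median change was -0.02 over the members and -0.28 over all genes tested. Median-ratio scaling brought the median of all genes to -0.03, and 4 members were then called higher, as Notch2 (0.46) and Notch3 (0.63) joined Hes1 and Heyl.

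Compared with adult libraries, transplant libraries had higher Hes1, Heyl and Hey2 and lower Hey1 and Notch1. The 3 members called higher stand beside 27.3% of all genes, and the 2 called lower beside 16.9%, with 44.2% of all genes called either way. The median change was 0.23 over the members and 0.23 over all genes. Teratoma libraries, set against the same adult libraries, had higher Hes1, Heyl and Hey2 and lower Hey1. Those 3 higher members stand beside 36.4% of all genes, and the 1 lower beside 8.94%, with 45.4% called either way. There the median change was -0.01 over the members and 0.50 over all genes, and only Hes1, Heyl and Hey2 rose past the latter. With median-ratio scaling that all-gene median became 0.12, and Notch1, Notch2 and Rbpj were then also called lower, giving 4. Both comparisons share the adult libraries.

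Compared with embryo libraries, transplant libraries had higher Notch3, Dll1, Hes1 and Heyl and lower Hey2. These 4 higher members stand beside 14.9% of all genes, and the 1 lower beside 27.6%, with 42.5% called either way. Teratoma libraries had higher Notch1, Notch3, Dll1 and Heyl, 4 members beside 15.5% of all genes, with 0 lower beside 10.6% and 26.0% called either way. Adult libraries had higher Notch1, Notch3, Dll1 and Hey1 and lower Hes1, Hey2 and Heyl, 4 members beside 15.8% and 3 beside 36.9% of all genes, with 52.8% called either way. The median change over members and over all genes was 0.17 and -0.24 for transplant, 0.26 and 0.01 for teratoma, and 0.19 and -0.42 for adult libraries. All 3 comparisons share the embryo libraries. The Heyl change of -0.74 in adult libraries is to be read beside the all-gene median of -0.42. Median-ratio scaling moved the all-gene medians to 0.00 for transplant, 0.01 for teratoma and -0.04 for adult against embryo libraries, and to 0.09 for transplant against adult libraries.

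**Figure D3:**
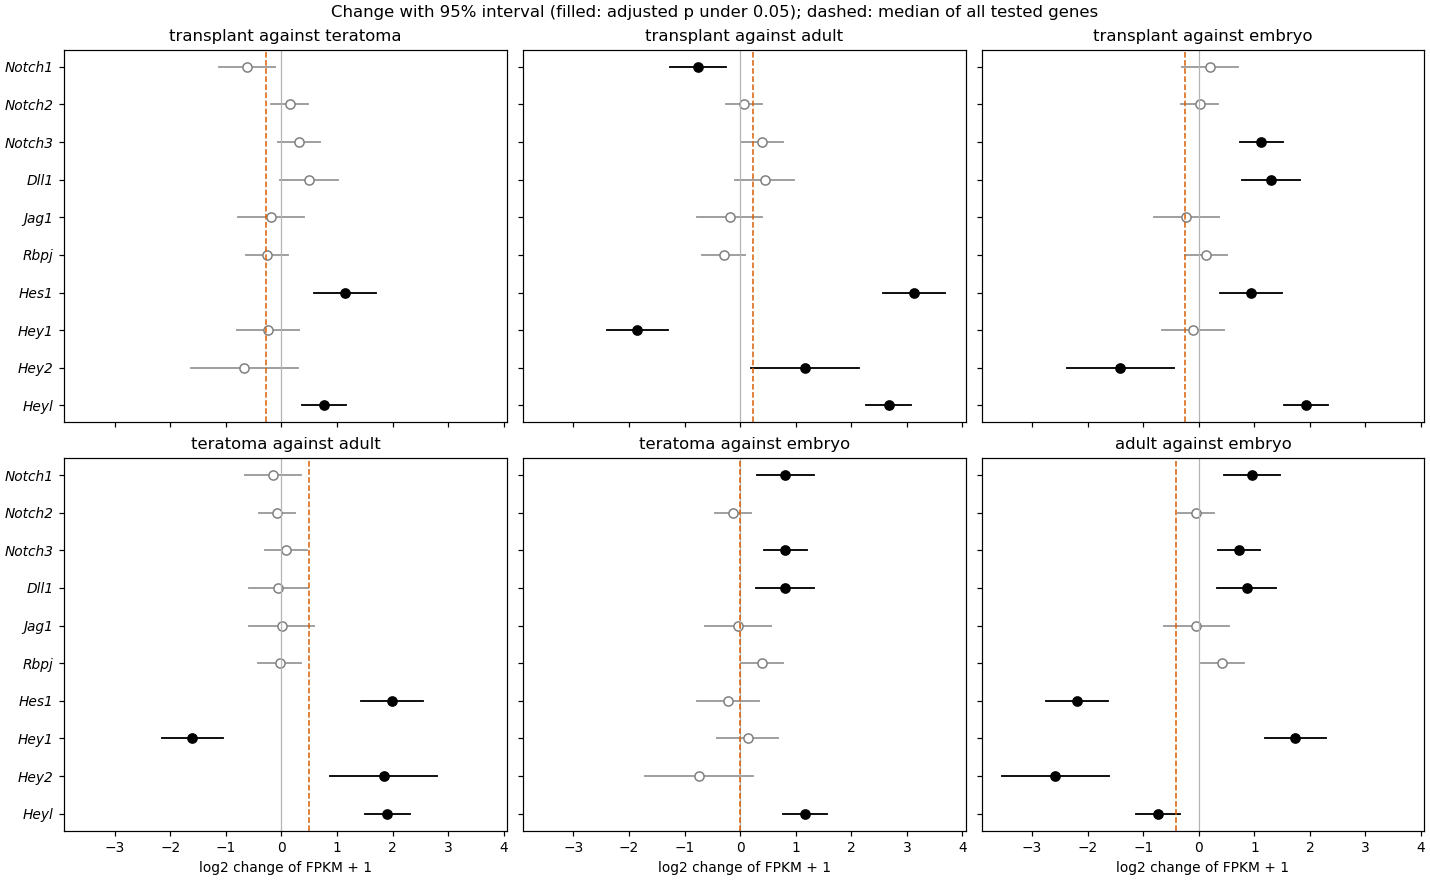
Difference in log2(FPKM + 1) of the 10 members in the 6 comparisons, first-named group minus second, with 95% intervals. Filled points passed an adjusted p of 0.05, and the dashed line is the median of all genes tested. Changes reach 3.14 (Hes1, transplant against adult) and -2.58 (Hey2, adult against embryo), while Notch2, Jag1 and Rbpj have no filled point.

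A list of 84 other pathway genes was read in the same fit, and 79 passed the filter. In transplant against teratoma libraries 5 were higher and 8 lower, where 4.18% and 18.5% of all genes tested were. In transplant against adult libraries 33 were higher and 12 lower, beside 27.3% and 16.9% of all genes. In transplant against embryo libraries 19 were higher and 18 lower, beside 14.9% and 27.6%. In teratoma against adult libraries 34 were higher and 7 lower, beside 36.4% and 8.94%. In teratoma against embryo libraries 17 were higher and 12 lower, beside 15.5% and 10.6%, and in adult against embryo libraries 13 and 36, beside 15.8% and 36.9%. Their median changes were -0.12, 0.59, 0.02, 0.59, 0.03 and -0.60 in that order of comparisons, beside -0.28, 0.23, -0.24, 0.50, 0.01 and -0.42 over all genes tested.

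Among 9 secreted or atypical modulators, Dlk1, a ligand-like protein without the domain by which Dll1 binds Notch receptors, had the widest span. Dlk1 was at 10.5, 3.49 and 5.44 FPKM in transplant, 160, 132 and 154 FPKM in teratoma, 0.760, 0.492 and 2.03 FPKM in adult, and 304, 238 and 312 FPKM in embryo libraries. No 2 groups overlapped. It was lower in transplant than in teratoma libraries (-4.43, adjusted p = 1.09e-05) and higher in teratoma than in adult libraries (6.22, adjusted p = 2.24e-07). Mfap5, a microfibril protein that can bind Notch ligands and receptors and that is also on the fibroblast list, averaged 94.8 ± 12.7 FPKM in transplant, 18.5 ± 10.5 in teratoma, 4.18 ± 1.32 in adult and 3.56 ± 3.15 in embryo libraries. It was higher in transplant than in teratoma (2.45, adjusted p = 0.00388), adult (4.24, adjusted p = 3.89e-05) and embryo libraries (4.61, adjusted p = 1.41e-05). In teratoma against adult libraries 7 of the 9 modulators were higher and 0 lower, beside 36.4% and 8.94% of all genes.

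Lfng, a glycosyltransferase that alters which ligands a Notch receptor answers, was 1 of 5 genes of receptor glycosylation. It was at 7.60, 5.88 and 4.73 FPKM in transplant, 7.35, 9.26 and 15.5 FPKM in teratoma, 0.671, 1.17 and 2.26 FPKM in adult, and 15.8, 64.7 and 25.5 FPKM in embryo libraries. Adult libraries were lowest and embryo libraries highest, without overlap. Relative to adult libraries Lfng was higher in transplant (1.61, adjusted p = 0.0114) and teratoma libraries (2.30, adjusted p = 0.00143), and in adult libraries it was lower than in embryo libraries (-3.76, adjusted p = 2.40e-05).

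Of 10 genes of receptor cleavage, 9 were tested. Furin, which cuts the receptor during its maturation, averaged 39.8 ± 5.87 FPKM in transplant, 43.8 ± 1.93 in teratoma, 66.6 ± 1.88 in adult and 19.8 ± 4.58 in embryo libraries. Adam10, which makes the cut that follows ligand binding, ran the other way between the native stages. It averaged 11.0 ± 1.96 FPKM in transplant, 18.4 ± 3.02 in teratoma, 8.86 ± 1.40 in adult and 27.8 ± 4.40 in embryo libraries. In adult against embryo libraries Furin was higher (1.73, adjusted p = 6.89e-06) and Adam10 lower (-1.54, adjusted p = 4.86e-05). Adam10 was also lower in transplant than in teratoma libraries (-0.70, adjusted p = 0.0277), the only gene of this list called there. Ncstn, a γ-secretase subunit, was listed at 0 in adult replicates 1 and 3 and embryo replicate 2, beside 9.93 FPKM in adult replicate 2, and its calls as higher in transplant and in teratoma than in adult libraries, which are within the counts above, were made with those zeros.

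Among nuclear cofactors, Tle4, a corepressor that Hes proteins recruit, was lower in transplant than in teratoma (-1.61, adjusted p = 0.00404), adult (-2.66, adjusted p = 5.65e-05) and embryo libraries (-1.67, adjusted p = 0.00124). It averaged 1.99 ± 0.384 FPKM in transplant libraries, against 8.61 ± 3.63 in teratoma, 17.8 ± 2.34 in adult and 8.74 ± 2.84 in embryo libraries. Of 16 corepressors tested, 14 were not called in transplant against teratoma libraries. Among 8 coactivators, Crebbp, a histone acetyltransferase, averaged 19.9 ± 1.45 FPKM in transplant, 29.4 ± 4.62 in teratoma, 44.5 ± 4.77 in adult and 26.0 ± 5.41 in embryo libraries, and was lower in transplant than in adult libraries (-1.12, adjusted p = 0.000385).

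Dtx4, a Deltex ubiquitin ligase that acts on the receptor, followed an order like that of Heyl. It averaged 38.9 ± 8.94 FPKM in transplant, 27.1 ± 4.73 in teratoma, 7.83 ± 1.81 in adult and 15.9 ± 1.90 in embryo libraries. It was higher in transplant than in adult (2.17, adjusted p = 1.86e-05) and embryo libraries (1.22, adjusted p = 0.000763), and not called against teratoma libraries (0.49, adjusted p = 0.124). Among 16 other targets tested, 11 were higher and 3 lower in transplant than in adult libraries, beside 27.3% and 16.9% of all genes. In adult against embryo libraries 4 of them were higher and 10 lower, beside 15.8% and 36.9%.

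Hes6, which opposes Hes1 and promotes differentiation, was at 13.3, 14.3 and 12.1 FPKM in transplant, 7.79, 6.24 and 11.3 FPKM in teratoma, 0.709, 0.317 and 1.23 FPKM in adult, and 6.02, 9.23 and 6.18 FPKM in embryo libraries. Like Hes1 it was lower in adult libraries than in all others. It was higher in transplant than in adult libraries (3.05, adjusted p = 8.39e-06). Myc and Cdkn1a, on the same target list, were higher in adult than in embryo libraries (3.71 and 3.62, adjusted p = 2.24e-08 and 3.68e-07). They averaged 206.9 and 147.6 FPKM in adult and 14.9 and 11.8 FPKM in embryo libraries. Col5a3, a collagen gene under Notch control in satellite cells, was at 75.1, 70.1 and 78.9 FPKM in transplant, 12.9, 17.1 and 21.3 FPKM in teratoma, 36.5, 43.3 and 39.5 FPKM in adult, and 3.42, 1.31 and 2.63 FPKM in embryo libraries. No 2 groups overlapped. It was higher in transplant than in teratoma (2.09, adjusted p = 0.000148) and embryo libraries (4.50, adjusted p = 1.39e-07).

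**Figure D4:**
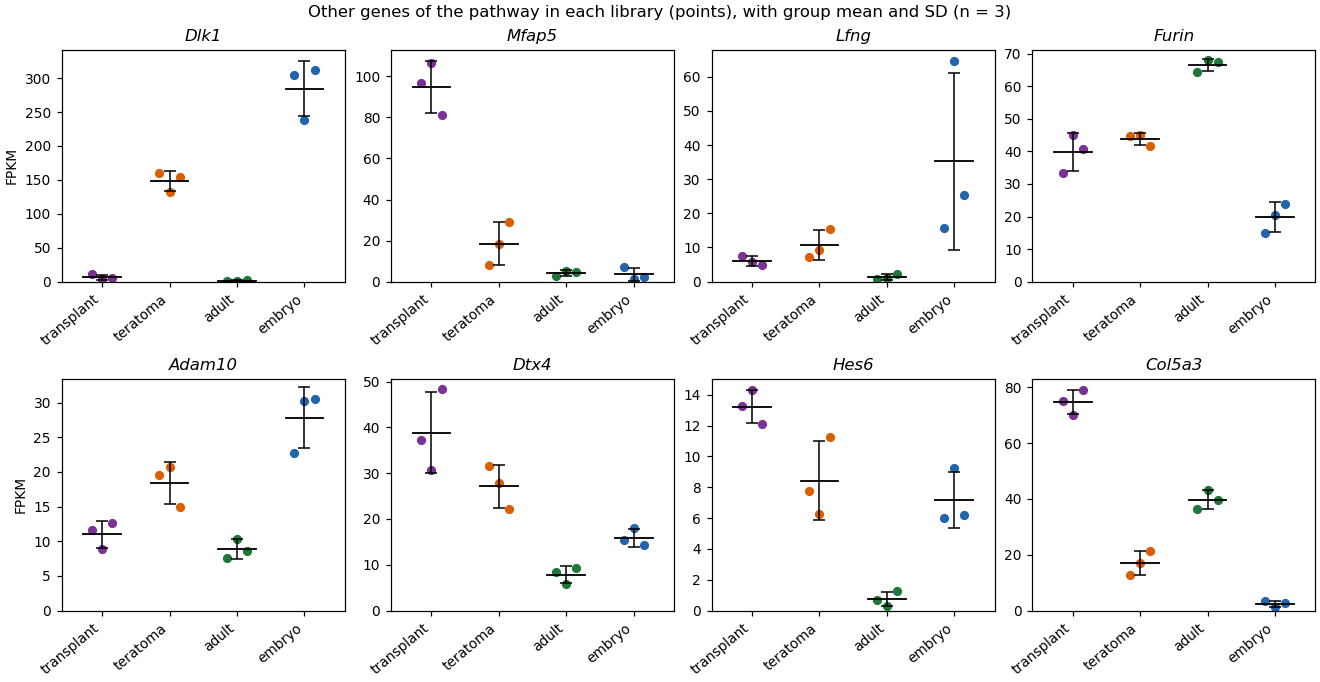
FPKM per library (points) with group mean and SD for 8 other pathway genes, groups ordered transplant, teratoma, adult and embryo. Dlk1 and Lfng are highest in embryo libraries, Furin in adult libraries, and Mfap5, Dtx4, Hes6 and Col5a3 in transplant libraries.

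Genes whose pattern over the 12 libraries was most like that of a member were found by the root-mean-square difference in log2(FPKM + 1) after centring each gene, among 6494 genes with a mean of at least 5 FPKM for Notch1 and Heyl and 6495 for Dll1. For Notch1, whose own spread was 0.49 (SD on this log2 scale), these were Lats1 (difference 0.16), Mtap7d1 (0.17) and Baz2a (0.18). For Dll1, with a spread of 0.54, they were Nav1 (0.23), Tacc1 (0.26) and Dnajc3 (0.27). For Heyl, with a spread of 1.09, they were Antxr1 (0.26), Fos (0.28) and Pld3 (0.28). Antxr1 averaged 125.3 FPKM in transplant, 73.6 in teratoma, 17.6 in adult and 29.1 in embryo libraries. Fos, an immediate early gene that tissue digestion can induce, averaged 873 FPKM in transplant, 386 in teratoma, 115 in adult and 187 in embryo libraries. Its part in the Heyl pattern was not tested. The libraries share their preparation and scaling, so these likenesses are a description.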

How the data were processed

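Cells of all 12 libraries were freed with collagenase II and dispase, sorted by flow cytometry, and their total RNA was made into libraries (SMARTer Stranded Total RNA-seq Pico kit), per the labels' protocols. Build mm10 and the tools Cufflinks 2.2.1.0, Partek, TopHat 0.7 and CASAVA 1.8.2 are listed, without roles, in the submitters' processing notes. Per the file headers, the authors deposited FPKM values, 1 column for each library and 1 row for each gene symbol. The sources used here do not give the annotation, strand setting or depth, so precision is judged only from the spread of libraries within the 4 groups. A value listed as exactly 0 may be an estimate that failed.

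The table held 23746 entries, of which 702 carried one of 240 repeated symbols and were summed, leaving 23284. No 2 libraries were identical. Tests used R 4.3.3 and limma 3.58.1 on log2(FPKM + 1), with a filter of 1 FPKM in 3 libraries (12699 genes), 1 model of 4 groups (8 residual degrees of freedom), an intensity trend, and Benjamini-Hochberg adjustment over all genes per comparison. The steps were tested on simulated data. Tables and figures were made in Python 3.11.15 with pandas 2.3.3, numpy 2.4.6 and matplotlib 3.10.9.

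The members, gene lists and tests were chosen with earlier results of these data known. The text names all members, up to 2 called genes without group overlap per pathway list and comparison by size of change, and 3 genes most like each of Notch1, Dll1 and Heyl. That last choice passed over histone, ribosomal protein, mitochondrial, small RNA and predicted genes. Each result was computed again with quantile normalization or median-ratio scaling, with the filter set to a mean of 5 FPKM or dropped, with 0.1 as the pseudocount, from the 2 groups compared alone, with a replicate block, and without each library in turn.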

Additional observations from a re-analysis of the deposited data

How the results depend on the processing

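Of 27 member calls, 20 kept their direction and their side of the threshold under all 19 alternatives (18 for Hey2 and Dll1) and 7 were lost under at least 1, while 0 reversed. Of 33 changes not called, 12 were called under at least 1 alternative. Counts of members moved as follows. With median-ratio scaling, 4 members were higher in transplant than in teratoma libraries and 4 lower in teratoma than in adult libraries, and with quantile normalization 4 were higher in transplant than in teratoma libraries. With a pseudocount of 0.1, the filter at a mean of 5 FPKM (which drops Hey2 and Dll1), median-ratio scaling or the 2 groups alone, 0 were lower in transplant than in embryo libraries. The fit of 2 groups left 2 higher in teratoma than in embryo libraries. Testing fewer genes at the mean filter of 5 FPKM, calls among all genes were 3720 for teratoma against adult (5763 as reported), 2084 for teratoma against embryo (3308) and 4370 for adult against embryo libraries (6699).

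Scaling also moved the share of calls that were higher. It was 18.5% in transplant against teratoma (43.4% with median-ratio scaling, 45.6% with quantile normalization), 61.7% in transplant against adult (51.8%, 48.1% by quantile), 35.02% in transplant against embryo (51.3%, 46.6%), 80.3% in teratoma against adult (53.0%, 48.7%) and 30.0% in adult against embryo libraries (49.8%, 49.3%). In teratoma against embryo libraries it was 59.4% (59.4%, 49.6%). Changes that reversed were all uncalled as reported, and 1 of them, Notch2 in adult against embryo libraries with median-ratio scaling, passed the threshold after it (adjusted p = 0.0107, range 0.0107 to 0.995). With median-ratio scaling they became, on the log2 scale, 0.12 (Jag1), 0.046 (Rbpj) and 0.066 (Hey1) in transplant against teratoma, -0.14 (Notch2) in transplant against adult, 0.085 (Jag1) and 0.21 (Hey1) in transplant against embryo, -0.44 (Notch3) and -0.51 (Jag1) in teratoma against adult, and 0.47 (Notch2) and 0.48 (Jag1) in adult against embryo libraries. With quantile normalization they became 0.078 (Jag1, transplant against teratoma), 0.074 (Hey1, transplant against embryo), -0.18 (Jag1, teratoma against adult), and 0.024 (Notch2) and 0.10 (Jag1) in adult against embryo libraries. The cause was not tested.

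Leaving out 1 library at a time, calls among all genes in transplant against teratoma ran from 1706 (without teratoma replicate 1) to 3300, with 1805 without transplant replicate 1 and 2874 as reported. Members called lower ran from 0 to 1 in transplant against teratoma, 1 to 2 in transplant against adult, 0 to 1 in transplant against embryo and 0 to 1 in teratoma against embryo, and members called higher from 2 to 4 in teratoma against embryo libraries. Uncalled changes whose sign turned ran from -0.55 to 0.082 (Hey1) in transplant against teratoma; from -0.0092 to 0.47 (Notch1), -0.040 to 0.11 (Notch2), -0.021 to 0.25 (Rbpj) and -0.41 to 0.22 (Hey1) in transplant against embryo; from -0.14 to 0.024 (Notch2), -0.24 to 0.074 (Dll1), -0.15 to 0.11 (Jag1) and -0.11 to 0.040 (Rbpj) in teratoma against adult; from -0.38 to 0.14 (Jag1) and -0.38 to 0.093 (Hes1) in teratoma against embryo; and from -0.16 to 0.045 (Notch2) and -0.38 to 0.13 (Jag1) in adult against embryo libraries.

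The labels do not say that equal replicate numbers pair the libraries. Of 18 correlations between the deviations of libraries with equal numbers, 0 passed 0.1 (range -0.0951 to 0.0956). With 3 libraries a group, whose deviations sum to 0 within the group, these correlations cannot exclude a pairing. With a replicate block, calls among all genes in transplant against teratoma numbered 2466, and the only member call to change was Hey2 in transplant against adult libraries (adjusted p = 0.0740, range over its alternatives 0.0109 to 0.190).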

Other observations

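A pair of Notch targets outside the member list, named here after their values were seen, was highest in embryo libraries. Among the other targets tested, Snai2, Id1 and Ccnd1 also had their highest group mean there (15.1, 83.6 and 18.2 FPKM). As the pair was picked for these values, the adjusted p-values of Nrarp are a description. Nrarp, a target that feeds back on the Notch complex, was at 1.94, 1.62 and 3.65 FPKM in transplant, 3.16, 6.94 and 2.17 FPKM in teratoma, 2.44, 0.764 and 1.52 FPKM in adult, and 8.64, 8.28 and 16.7 FPKM in embryo libraries. Every embryo library was above every other. Nrarp was lower than in embryo libraries in the transplant (-1.82, adjusted p = 0.00316), teratoma (-1.31, adjusted p = 0.0316) and adult groups (-2.23, adjusted p = 0.000567). Hes5, a target best known from neural progenitors, was at 0.279 and 0.274 FPKM in transplant replicates 1 and 2, listed at 0 in transplant replicate 3 and in all teratoma and adult libraries, and at 1.71, 16.4 and 2.42 FPKM in embryo libraries. The Schwann and neural list, 11 genes, summed to 5.70 to 14.6 FPKM in transplant, 21.2 to 24.8 in teratoma, 25.8 to 40.9 in adult and 30.9 to 45.1 in embryo libraries, and its part in the Hes5 level was not tested. The embryo order of Nrarp and Hes5 is unlike that of Hes1 and Heyl, which were higher in transplant than in embryo libraries.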
